A study of Mus musculus with 24 samples.

Results

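The heme synthesis and bilirubin pathway was followed through 8 genes, chosen by symbol from the 24411 genes counted in each mouse liver library. Alas1, Alad, Urod, Cpox, Ppox and Fech encode enzymes of heme synthesis, and Blvra and Blvrb encode the biliverdin reductases. All 8 genes were read in all 24 libraries and passed the filter on low counts in every comparison. The smallest count of any of them was 109 reads, for Blvra.

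Heme is built by a chain of enzymes that begins in the mitochondrion, passes through the cytosol and ends in the mitochondrion again, where iron is inserted into protoporphyrin. Outside the bone marrow the liver is the main site of synthesis, and much of its heme goes into cytochrome P450 enzymes, among them those that oxidize acetaminophen (APAP) to its toxic product. Heme oxygenase opens the ring of spent heme to biliverdin, a biliverdin reductase turns this into bilirubin, and the hepatocyte conjugates bilirubin for export into bile.

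Male mice aged 2.5 months were used. LKO mice carry floxed E2f7 and E2f8, which encode atypical E2F repressors of the cell cycle, together with Cre under the albumin promoter, and their control littermates lack Cre. Both have the R26R mTmG reporter and a mixed, mostly FVB background. HKO mice are floxed mice that received AAV8-TBG-Cre, a virus that drives Cre from a hepatocyte promoter, at 2 months, and their controls received AAV8-TBG-Null. All mice were fasted for 16 h. At 0 h the mice had no APAP and each library was 1 mouse (4 LKO, 4 LKO controls, 3 HKO, 3 HKO controls). At 12, 24, 48, 72 and 96 h after 300 mg/kg APAP, RNA of 3 mice was pooled into 1 library per genotype, in the LKO cohort only. Reads on genes ranged from 12665700 to 19499900 per library. The hour of killing and the feeding after injection are not given in the sources used here, so time after APAP cannot be told apart from refeeding and time of day.

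The 6 hepatocyte markers (Alb, Ttr, Apoa1, Apob, Tat, Serpina1c) were read in every library, and their summed level ranged from 49658 CPM, read counts scaled to the depth of the library, in an LKO liver at 0 h to 130992 CPM in the control pool at 72 h. Globin reads were 0 in every library for all 4 globin genes of the erythroid list, so that Alas2 was the erythroid marker with reads enough to test. Globin genes have near-identical copies, and reads that match several places are not counted per gene, so a listed 0 does not show that globin RNA was absent. Counts over the whole E2f8 gene at 0 h were 17.2 to 35.4 CPM by library size in the libraries labelled LKO and 10.8 to 18.1 CPM in their controls, ranges that overlap, and 30.9 to 84.3 CPM in those labelled HKO against 14.3 to 25.2 CPM in their controls. These counts are not limited to the deleted exons, so they do not check the labels. In whole liver, fewer cells of a type and less RNA per cell cannot be told apart.

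A short site is shown for Alas1. The stretches before the transcription starts of Alad, Urod, Ppox and Blvra are shown because each held a motif match. These stretches were not chosen by the changes after APAP, and Cpox, Fech and Blvrb, which were also called then, have none shown. They are RefSeq promoter windows on GRCm38.p6 (250 bases before to 50 after the start), of which the 250 bases before the start are printed, 5' to 3' on the gene's strand. Matches to any of 7 motifs, searched on both strands, are in capitals, and no match overlapped another motif. The motifs were the NRF1 core GCGCATGC, the E-box CACGTG, the antioxidant response element TGACNNNGC, the E2F sites TTTCCCGC and TTTGGCGC, the GATA site AGATAA and the CCAAT box.
Alas1 (chr9:106247906-106247935, minus strand): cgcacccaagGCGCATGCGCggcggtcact
Alad (chr4:62520064-62520313, minus strand): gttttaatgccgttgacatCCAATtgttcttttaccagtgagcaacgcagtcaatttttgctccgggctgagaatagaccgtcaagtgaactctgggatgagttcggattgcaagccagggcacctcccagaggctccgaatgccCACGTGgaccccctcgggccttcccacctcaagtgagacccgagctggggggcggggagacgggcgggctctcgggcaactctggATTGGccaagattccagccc
Urod (chr4:116994414-116994663, minus strand): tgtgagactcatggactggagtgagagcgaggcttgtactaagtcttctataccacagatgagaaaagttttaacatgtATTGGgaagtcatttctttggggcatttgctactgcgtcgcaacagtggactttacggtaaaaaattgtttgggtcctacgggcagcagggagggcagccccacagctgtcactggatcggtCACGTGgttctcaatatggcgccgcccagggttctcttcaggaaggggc
Ppox (chr1:171281187-171281436, minus strand): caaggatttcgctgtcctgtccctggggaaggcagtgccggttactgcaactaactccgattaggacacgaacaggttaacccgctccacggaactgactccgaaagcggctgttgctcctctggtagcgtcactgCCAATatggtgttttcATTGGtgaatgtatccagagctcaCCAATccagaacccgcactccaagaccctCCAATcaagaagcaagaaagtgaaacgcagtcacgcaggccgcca
Blvra (chr2:127070407-127070656, plus strand): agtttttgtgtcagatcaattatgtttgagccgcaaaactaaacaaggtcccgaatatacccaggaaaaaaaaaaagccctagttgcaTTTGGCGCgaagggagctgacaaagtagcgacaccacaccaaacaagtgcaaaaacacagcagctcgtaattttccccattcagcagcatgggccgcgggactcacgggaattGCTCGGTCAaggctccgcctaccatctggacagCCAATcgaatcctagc

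Of the 8 genes, 7 were in the promoter table, with 10 windows. The Alas1 site is the palindrome that holds the NRF1 core on both strands, and its first capital lies at position 29 from the upstream start of the gene and at -195 from the downstream start, where negative positions precede the start. NRF1 (nuclear respiratory factor 1) activates genes of the mitochondrion. The core was in 2.71% of all 32851 windows, and of the members only Alas1 held it. E-boxes, the sites of MYC and of the clock factors CLOCK and BMAL1, stood at -105 in Alad and at -49 in Urod, and a second start of Alad had one at -28. Of all windows, 7.15% held an E-box. Ppox had 4 CCAAT boxes on either strand, a motif present in 37.4% of all windows. Blvra held an E2F site TTTGGCGC at -162 (0.514% of windows) and an antioxidant response element at -49 (12.4%). The only match in Cpox was a GATA site at position 4 (11.2% of windows). TTTCCCGC, found in 1.07% of windows, was in none of the members' windows, and Blvrb held none of the 7 motifs. A match is a description of letters and says nothing of whether a factor was bound.

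The genes lie apart in the genome (GRCm38, GENCODE vM21). Alas1 spans chromosome 9, 106233455 to 106248654. Alad (62509169 to 62519918) and Urod (116989965 to 116994413) lie on chromosome 4, and Cpox on chromosome 16 (58670292 to 58717636). Ppox is on chromosome 1 (171275990 to 171281186) and overlaps B4galt3 on the opposite strand. The libraries do not keep strand, so reads in shared stretches of these 2 genes cannot be assigned, but the stranded columns together held almost the same Ppox reads (99.7% of their sum). Fech lies on chromosome 18 (64452914 to 64490251), Blvra on chromosome 2 (127070665 to 127097084) and Blvrb on chromosome 7 (27447978 to 27466144).

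**Figure D1:**
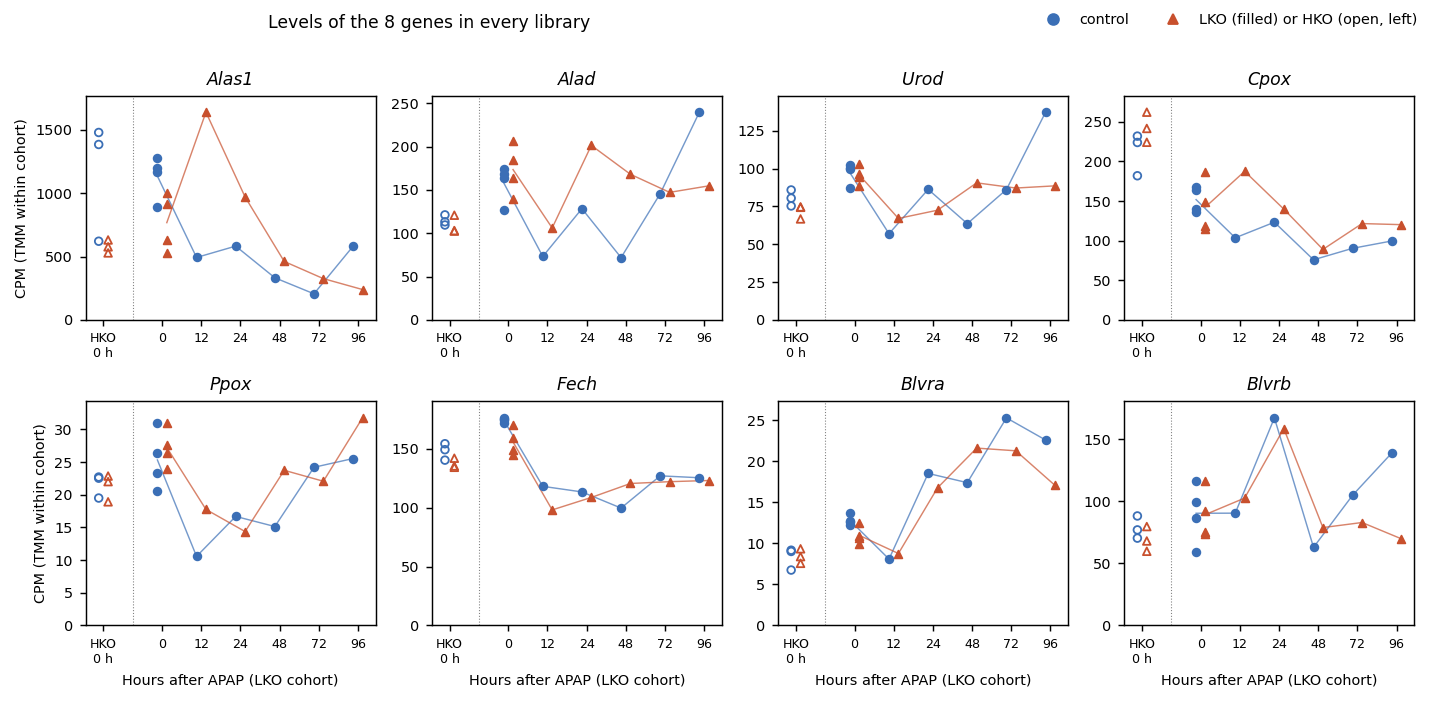
Level of each gene (CPM, TMM scaling within each cohort, axes from 0) in every library. Filled symbols are the LKO cohort by hours after APAP, with single mice at 0 h and 1 pool of 3 mice per genotype afterwards, and lines start at the 0 h mean. Open symbols at the left are the HKO cohort at 0 h. Alas1 stood at 1641 CPM in the LKO pool at 12 h, where the control pool was at 493 CPM, and Fech lay below all mice at 0 h in all 10 pools.

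Levels between genes were compared per kilobase of merged exons, which counts every annotated exon of a gene. In the 4 control livers of the LKO cohort at 0 h the order was Alas1 at 184 ± 27.3 CPM per kb (SD, n = 4), Alad at 84.7 ± 11.6, Urod at 37.6 ± 2.6, Blvrb at 32.5 ± 8.7, Cpox at 22.8 ± 2.4, Fech at 12.6 ± 0.15, Ppox at 5.61 ± 0.99 and Blvra at 5.23 ± 0.27. The ranges of Urod and Blvrb, of Blvrb and Cpox, and of Ppox and Blvra overlapped, so these neighbours did not differ beyond their spread. Alas1, the first and in liver the rate-limiting enzyme, thus stood above the genes that follow it in these 4 livers. In each of the 4 untreated LKO livers it also stood above Alad. The ranges over these mice overlapped, at 85.0 to 162 CPM per kb for Alas1 and 74.4 to 111 for Alad. In the control pool at 72 h Alas1 had come down to 33.3 CPM per kb, level with Urod at 33.3. Alad at 77.9 and Blvrb at 37.7 stood above it there.

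**Figure D2:**
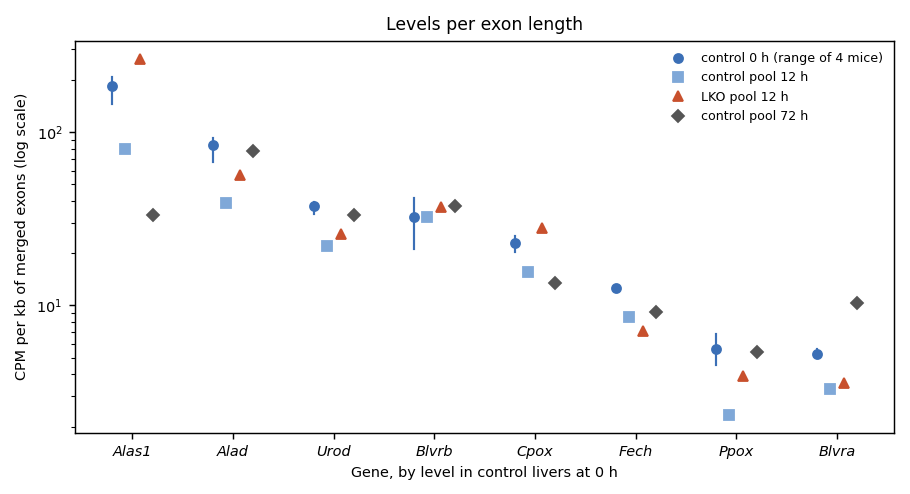
Level per kilobase of merged exons (log scale) of the 8 genes, ordered by their mean in control livers at 0 h (circle, with the range of 4 mice), beside the control and LKO pools at 12 h and the control pool at 72 h. Alas1 drops from 184 to 33.3 CPM per kb in controls by 72 h, and Blvra rises from 5.23 to 10.3.

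After APAP the change against 0 h was estimated from the 2 pools of a time point against the 8 mice at 0 h, with genotype as a term, and calls required an adjusted p under 0.05 together with a change of 1.5-fold or more. The 5 time points share the same 8 mice, so their results are not independent. With 1 pool per genotype and time, the p-values measure the spread between these libraries. The 2 pools of a time point differ in genotype, so a genotype difference particular to that time adds to this spread. At 12 h, 4 of the 8 genes were called, all lower (31% of the 13855 genes tested were called), and the members' median change was -0.55 (log2) beside -0.01 for all genes. At 24 h 1 was called higher and 1 lower (25.6% of all genes), with a median of -0.23. At 48 h, again, 1 was called higher and 1 lower (16.4%), and the median was -0.48. At 72 h the calls were 1 higher and 1 lower (16.8%), and at 96 h 1 higher (0.462%). The share of members called at 24, 48 and 72 h, 2 of 8, stood near that of all genes and is not a result about the members. At 12 h, 2 of the 6 hepatocyte markers were called lower (Ttr at -0.98 and Serpina1c at -0.89, log2) and 2 of 4 neutrophil markers higher. The calls of Ttr and Serpina1c were lost without either 12 h pool (adjusted p = 0.0852 to 0.148), and that of the neutrophil marker S100a9 under 8 of 16 alternatives. The control pool of 12 h stood apart from the other libraries of its cohort. Its 4 biliary markers summed to 136 CPM, against 8.91 to 12.9 CPM in the 8 mice and 22.6 CPM in its LKO counterpart. Its reads that overlapped no annotated exon were 13.6%, against 7.29% to 10.9% in the rest of the cohort. The part of these in the 12 h changes was not tested.

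**Figure D3:**
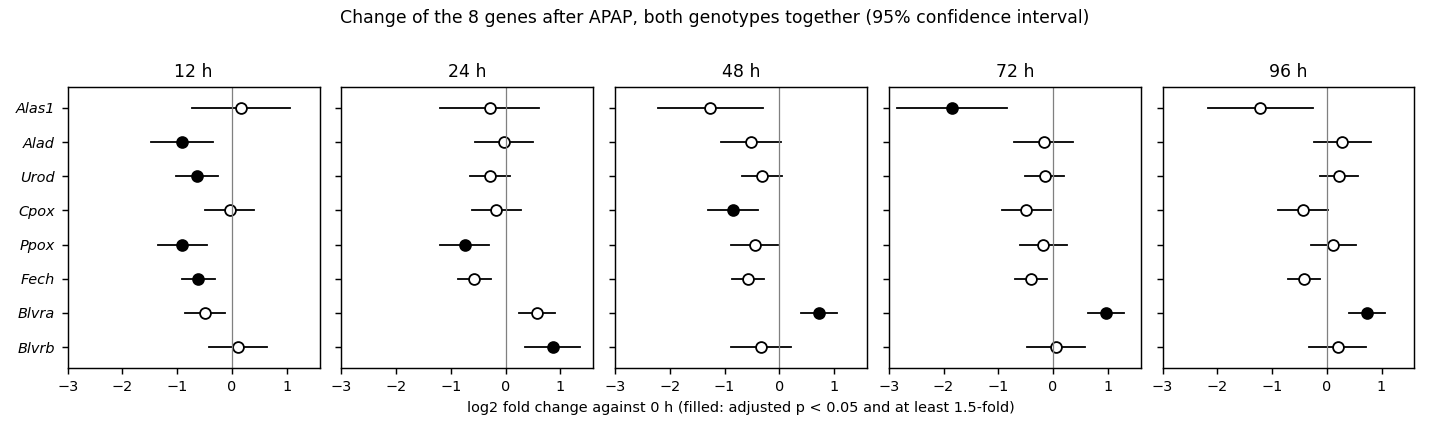
Log2 fold change of each gene against 0 h at 12 to 96 h, both genotypes together, with 95% confidence intervals (points, edgeR estimate from 2 pools and 8 mice). Filled points passed an adjusted p of 0.05 and 1.5-fold. The filled points are, in order of time, Alad, Urod, Ppox and Fech (12 h), Ppox and Blvrb (24 h), Cpox and Blvra (48 h), Alas1 and Blvra (72 h), and Blvra (96 h).

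Alas1 encodes 5-aminolevulinate synthase, which joins glycine to succinyl-CoA and is held down by heme itself. In controls of the LKO cohort at 0 h it stood at 1280, 1170, 1200 and 893 CPM, and in LKO livers at 525, 629, 917 and 1000 CPM. From 12 to 96 h the control pools held 493, 582, 332, 205 and 582 CPM in order of time, and the LKO pools held 1641, 971, 461, 325 and 239 CPM. All 5 control pools thus lay below all 4 control mice, whereas the LKO pool lay above all 4 LKO mice at 12 h, within their range at 24 h and below it from 48 h on. Both genotypes together, Alas1 fell by 1.84 on the log2 scale at 72 h (SE 0.48, edgeR adjusted p = 0.0131). At 48 h its difference was -1.26 (SE 0.46, adjusted p = 0.0642) and at 96 h -1.21 (SE 0.45, adjusted p = 0.216). Neither passed with edgeR, and DESeq2 called the 48 h difference (adjusted p = 0.0135). The 96 h difference was -2.10 without the control pool (adjusted p = 0.478) and -0.65 without the LKO pool (0.629). Without the control pool the 72 h change was -1.49 (adjusted p = 0.289), and without the first LKO mouse at 0 h the 48 h change was called (-1.38, adjusted p = 0.0395).

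Alad encodes the enzyme that condenses aminolevulinate to the pyrrole porphobilinogen. Its levels at 0 h were 174, 126, 164 and 169 CPM in controls and 139, 164, 185 and 207 CPM in LKO livers. At 12 h the pools were at 73.2 CPM (control) and 106 CPM (LKO), below every mouse of the LKO cohort at 0 h. Alad fell by 0.91 on the log2 scale at that time (SE 0.27, adjusted p = 0.0153). At 48 h the control pool was at 71.9 CPM and the LKO pool at 168 CPM, and at 96 h the order was the other way, at 240 and 155 CPM. The 48 h difference from 0 h was -0.51 (adjusted p = 0.183), and without the LKO pool it was called (-1.14, adjusted p = 0.0262). The pools were at 128 and 201 CPM at 24 h and at 146 and 147 CPM at 72 h. Without the control pool, the 12 h change was -0.76 (adjusted p = 0.175).

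Urod encodes uroporphyrinogen decarboxylase, which trims the side chains of the new ring and whose loss causes porphyria cutanea tarda. It varied little at 0 h, from 87.3 to 102 CPM in controls and from 88.5 to 103 CPM in LKO livers. The 12 h pools held 57.0 CPM (control) and 67.1 CPM (LKO), both below all 8 mice. This was a fall by 0.64 (log2, SE 0.18, adjusted p = 0.0112). From 24 h on no difference passed the test, and the pools ranged from 63.6 CPM (control, 48 h) to 137 CPM (control, 96 h). Without the control pool at 12 h the change was -0.51 (adjusted p = 0.162).

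Cpox and Ppox encode the oxidases that turn coproporphyrinogen into protoporphyrin. Cpox stood at 136, 168, 163 and 140 CPM in controls and at 186.7, 149, 119 and 115 CPM in LKO livers at 0 h. At 12 h it was at 104 CPM in the control pool and 187.5 CPM in the LKO pool, the first below and the second just above the mice of its own genotype. In this it went the way of Alas1. At 48 h the pools were at 75.8 and 88.9 CPM, below all 8 mice, and Cpox fell by 0.85 (log2, SE 0.22, adjusted p = 0.0145). Its call was lost under scaling by library size alone (-0.65, adjusted p = 0.0503) and without either 48 h pool (adjusted p = 0.161 without the control pool, 0.0708 without the LKO pool).

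Ppox, the less abundant of these oxidases, was at 23.3, 26.4, 20.6 and 31.0 CPM in controls and at 26.3, 30.9, 24.0 and 27.7 CPM in LKO livers at 0 h. It dropped to 10.6 CPM (control) and 17.8 CPM (LKO) at 12 h and stood at 16.7 and 14.4 CPM at 24 h. All of these pools lay below all 8 mice. The changes were -0.91 at 12 h (SE 0.21, adjusted p = 0.00382) and -0.75 at 24 h (SE 0.21, adjusted p = 0.0137). By 72 and 96 h the pools ranged from 22.1 to 31.8 CPM, with differences of -0.18 and 0.12 that did not pass. Without the control pool at 12 h the change was -0.64 (adjusted p = 0.114), and without the LKO pool at 24 h -0.53 (adjusted p = 0.266).

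Fech encodes ferrochelatase, which inserts iron into protoporphyrin in the last step. The 4 controls at 0 h were nearly equal, from 171 to 176 CPM, and the 4 LKO livers ranged from 145 to 170 CPM. The control pools were at 118, 113, 99.6, 127 and 125 CPM from 12 to 96 h, and the LKO pools at 98.1, 109, 121, 122 and 123 CPM. The highest of the 10 pools thus lay below the lowest of the 8 mice. Fech fell by 0.61 at 12 h (log2, SE 0.14, adjusted p = 0.00341). At 24 and 48 h the adjusted p was also under 0.05 (0.00643 and 0.00961), with changes of -0.57 and -0.58 that stayed short of 1.5-fold. At 72 and 96 h the differences were -0.40 and -0.41 (adjusted p = 0.0511 and 0.182). Without the LKO pool the 12 h change was -0.52 (adjusted p = 0.053). Without either of the first 2 LKO mice at 0 h, or without the LKO pool, Fech at 48 h passed 1.5-fold as well (-0.60 to -0.79, log2). At 24 h it passed without the first LKO mouse (-0.59, adjusted p = 0.00699) and in a stranded count column (-0.61, adjusted p = 0.00548).

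Blvra encodes the reductase that makes the bilirubin of adult bile from biliverdin. It was the gene with the fewest reads of the 8, between 109 and 448 per library. It stood at 13.7, 12.7, 12.6 and 12.2 CPM in controls and at 9.96, 10.8, 10.7 and 12.4 CPM in LKO livers at 0 h. Both 12 h pools lay below these mice, at 8.08 CPM (control) and 8.76 CPM (LKO), a difference of -0.49 (SE 0.17, adjusted p = 0.0355) that was short of 1.5-fold. Then the order turned. The control pools held 18.5, 17.4, 25.3 and 22.6 CPM at 24, 48, 72 and 96 h and the LKO pools 16.8, 21.6, 21.3 and 17.0 CPM, all above the 8 mice. The 48 h change was called (0.72, SE 0.16, adjusted p = 0.00468), as were those of 72 h (0.97, SE 0.15, adjusted p = 0.000273) and 96 h (0.73, SE 0.16, adjusted p = 0.0492). Its 24 h change of 0.57 (adjusted p = 0.0128) was short of 1.5-fold, which it passed under library size alone (0.72, adjusted p = 0.00181) and without the first control or the fourth LKO mouse (0.59 in both). The 48 h call was lost without the LKO pool (0.45, adjusted p = 0.155). The 96 h call was lost under 13 of the alternatives, among them without the control pool (0.57, adjusted p = 0.665), and DESeq2 kept it (adjusted p = 0.0036).

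Some macrophage markers were called higher over the same hours, and others lower. The summed level of the 9 markers, all read in every library, was 150 to 388 CPM in the 8 mice, 147 to 175 CPM in the 24 h pools, 252 to 316 CPM in those of 48 h, 640 to 645 CPM in those of 72 h and 179 to 431 CPM in those of 96 h. Of the 9, 2 were called higher and 3 lower at 24 h (median -0.67, log2), and 3 were called higher at 48 and at 72 h (Cd68, Marco and Lyz2), where 25.6%, 16.4% and 16.8% of all genes were called at these times. The Lyz2 call at 48 h was lost without either pool (adjusted p = 0.161 and 0.11). All 4 proliferation markers (Mki67, Top2a, Cdk1, Ccnb1) were called higher at 48 and 72 h. The part of either in the Blvra change was not tested.

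Blvrb encodes a reductase of biliverdin and flavins that acts on other biliverdin isomers. At 0 h it was spread widely, at 99.0, 86.8, 58.9 and 117 CPM in controls and at 75.5, 91.8, 73.4 and 117 CPM in LKO livers. At 24 h it was at 167 CPM in the control pool and 159 CPM in the LKO pool, above all 8 mice. It was called higher at this time (0.86, SE 0.24, adjusted p = 0.013) and did not pass the test at the other times. By 48 h the pools were back at 62.9 and 78.8 CPM, and at 96 h the control pool was at 139 CPM and the LKO pool at 69.8 CPM. Without either 24 h pool the call was lost (adjusted p = 0.102 without the control pool, 0.13 without the LKO pool). Of 5 NRF2 targets, Nqo1, Txnrd1 and Srxn1 were called higher at 24 h, and Gclc (0.67) and Gclm (-0.21) did not pass. The sum of the 5 was 581 to 773 CPM in the 8 mice, 2180 and 4815 CPM in the 12 h pools and 1489 and 1623 CPM in the 24 h pools, and its part in the Blvrb change was not tested.

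The untreated knockout livers were compared to ask whether the pathway differs before any APAP. Per the study, hepatocytes of LKO livers are mostly diploid and those of control and HKO livers mostly polyploid. Gene loss and ploidy cannot be told apart in the LKO comparisons. In HKO against control livers at 0 h, Alas1 had the largest difference of the 8 genes, and none of the 8 was called. Its levels were 1385, 1480 and 621 CPM in the 3 controls and 631, 577 and 529 CPM in the 3 HKO livers. The third control lay among the HKO values, so the groups overlapped. The log2 difference was -1.01 (SE 0.27, edgeR adjusted p = 0.137), against 0.96% of 12397 genes called. DESeq2 called it (adjusted p = 0.00251), as did edgeR without the filter on low counts (0.0436) and without the third control (-1.31, adjusted p = 0.00525). Without the first or the second control it was -0.86 and -0.79 (adjusted p = 0.408 and 0.402).

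The other 7 genes differed by -0.18 to 0.19 (log2) between HKO and control livers, with adjusted p of 0.559 to 0.978. Of the 8 genes, 1 had an unadjusted p under 0.05, and that was Alas1. Cpox was at 232, 224 and 182 CPM in controls and at 242, 224 and 262 CPM in HKO livers. Fech was at 140, 149 and 154 CPM in controls and at 135, 134 and 142 CPM in HKO livers. These groups overlapped. The 95% intervals of the fold changes of Alad, Urod, Cpox, Ppox and Fech stayed within -0.38 and 0.46 on the log2 scale.

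Uros (0.22), Hmox1 (0.26) and Hmox2 (-0.09) did not pass the test either. Among partners of the pathway, Clpx was called higher in HKO livers. It encodes the unfoldase of a mitochondrial protease, which acts on ALAS proteins. It was at 145, 128 and 112 CPM in controls and at 377, 475 and 372 CPM in HKO livers, a log2 difference of 1.67 (SE 0.14, adjusted p = 0.000781). The groups did not overlap. Cyp3a13, a P450 enzyme and so a user of heme, was lower (-1.30, adjusted p = 0.00205). Clock genes, whose products set the daily rhythm of many liver genes, differed as well. Of 12 clock genes, 1 was called higher (Arntl, 2.24) and 5 lower (Per3 -2.40, Dbp -2.70, Per2 -1.66, Tef -1.18, Nr1d2 -0.72). Without the first or the second control the calls of Dbp and Tef were lost (adjusted p = 0.0722 to 0.0808). The summed level of the clock genes was 897 to 996 CPM in controls and 454 to 648 CPM in HKO livers. The sum of the 7 fasting genes did not overlap either, at 13158 to 14660 CPM in controls and 11115 to 12284 CPM in HKO livers. The part of either sum in the Alas1 and Clpx differences was not tested.

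LKO livers at 0 h gave no call at all with edgeR, at 0% of 12426 genes, with 352 genes at an unadjusted p under 0.05 and 3 genes called by DESeq2. Alas1 again had the lowest fold change of the 8 genes, at -0.56 (SE 0.22, 95% interval -1.03 to -0.08), with an adjusted p of 0.999. Of its 4 LKO values, 2 (525 and 629 CPM) lay below all controls and 2 (917 and 1000 CPM) among them. The LKO liver at 525 CPM also had the lowest hepatocyte sum (49658 CPM) and the highest macrophage sum (388 CPM) of the 8 mice, and without it the difference was -0.41 (adjusted p = 0.915). Alas1 was the only one of the 8 with an unadjusted p under 0.05, and DESeq2 called none of the 8. The other 7 differed by -0.22 to 0.14, and Uros (0.02), Hmox1 (-0.26) and Hmox2 (-0.03) did not pass the test. The clock sum was 782 to 939 CPM in these controls and 567 to 978 CPM in LKO livers. Whether the Alas1 differences of LKO and HKO livers are unequal was tested directly. The difference between them ran from 0.23 to 0.75 over 21 alternatives, with no call. In the main fit it was 0.45 (95% interval -0.37 to 1.26, edgeR adjusted p = 0.9998). For the other 7 it was -0.28 to 0.21. In this test of the 2 knockouts against each other no member and 0% of 12945 genes were called by edgeR (579 genes and none of the 8 at an unadjusted p under 0.05, and 19 genes and none of the 8 by DESeq2).

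After APAP, LKO pools were compared with control pools over the 5 time points, with time as a block. None of the 8 genes was called, where 0.579% of 12782 genes were. At each of the 5 times the LKO pool held more Cpox than the control pool, by 0.39 on average (log2, SE 0.15, adjusted p = 0.232), and Cpox was the one member with an unadjusted p under 0.05. Alas1 was higher in 4 of 5 pools (0.48, SE 0.35, adjusted p = 0.497). This average was 0.16 without either 12 h pool and 0.90 without the LKO pool of 96 h (adjusted p = 0.0898). The other 6 members differed by -0.18 to 0.35, Uros by 0.58 (adjusted p = 0.186) and Hmox2 by 0.01. DESeq2 called none of the 8 either. The LKO difference after APAP minus that at 0 h was 1.05 for Alas1 (SE 0.45, adjusted p = 0.49) and 0.48 for Cpox (SE 0.22, adjusted p = 0.52), and from -0.16 to 0.23 for the other 6. In that test edgeR called none of the members and 0% of 13855 genes. At an unadjusted p under 0.05 there were 2 members (Alas1 and Cpox) and 1307 genes, and DESeq2 called 36 genes and none of the 8.

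**Figure D4:**
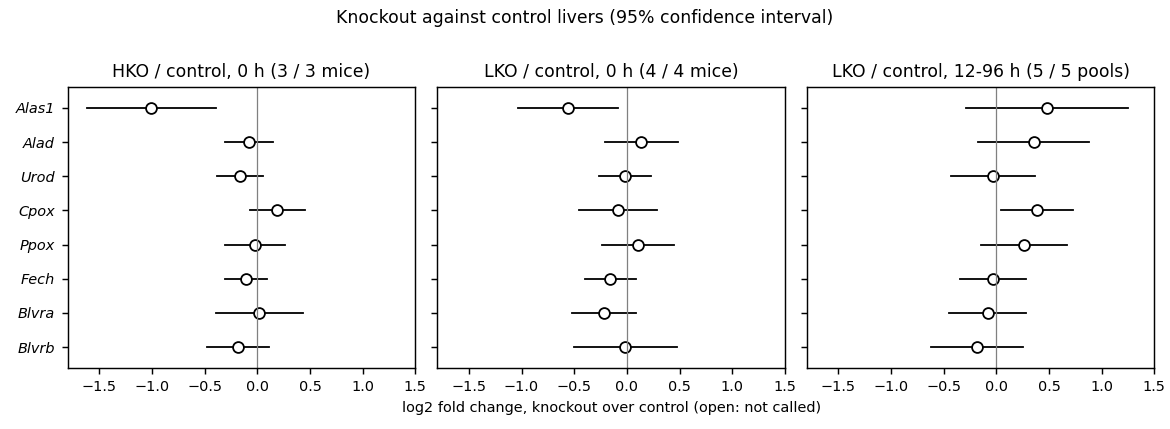
Log2 fold change of each gene in knockout over control livers, with 95% confidence intervals, for HKO mice at 0 h, LKO mice at 0 h and LKO pools from 12 to 96 h (time as a block). Open points show that none was called. Alas1 lies at -1.01 and -0.56 in untreated livers and at 0.48 after APAP.

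At single time points there is 1 pool per genotype, so the differences have no replicate check. At 12 h, 3 members were higher in the LKO pool by at least 1.5-fold, where 42.7% of all genes were past 1.5-fold either way. These were Alas1 (1.74, log2), Cpox (0.86) and Ppox (0.74), while Fech was at -0.27. At 24 h Alas1 (0.74) and Alad (0.65) were past 1.5-fold (21.2% of all genes), and at 48 h Alad (1.22) and Ppox (0.65), with 37.4% of all genes. At 72 h it was Alas1 alone (0.66, with 31.4% of all genes). At 96 h the sign was the other way for 4 members, Alas1 (-1.28), Blvrb (-0.99), Alad (-0.63) and Urod (-0.63), with 28.1% of all genes past 1.5-fold. From 12 to 96 h, in order, the median difference of the 8 was 0.39, -0.07, 0.40, -0.02 and -0.52. The median of all genes lay between -0.03 and 0.02. Under scaling by library size alone, 1 member was past 1.5-fold at 48 h and 2 at 96 h.

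**Figure D5:**
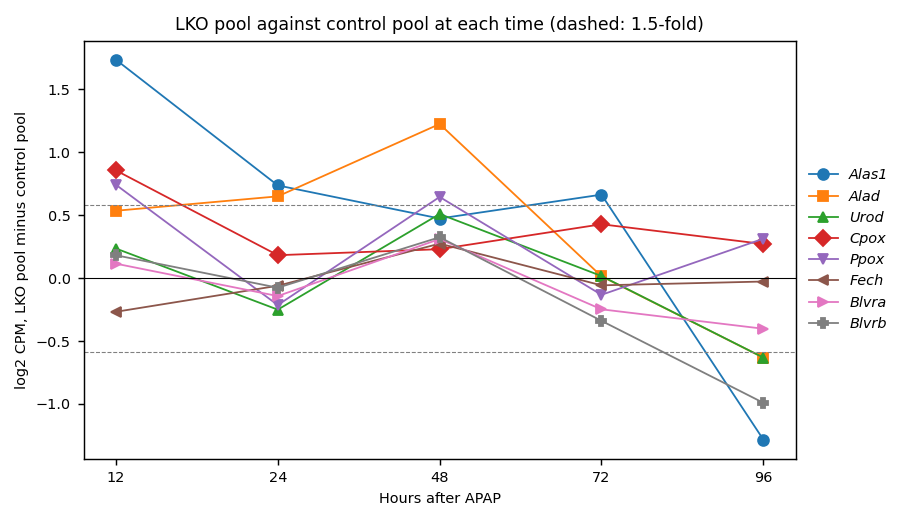
Log2 CPM in the LKO pool minus that in the control pool for each gene at 12 to 96 h (1 pool of 3 mice per genotype, no test). Dashed lines mark 1.5-fold. Alas1 goes from 1.74 at 12 h to -1.28 at 96 h, and Fech stays between -0.27 and 0.27.

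Uros and Alas2, which also encode enzymes of heme synthesis, were called lower after APAP. Uros, whose enzyme closes the porphyrin ring, fell by 0.98 at 12 h (SE 0.29, adjusted p = 0.0158), with 7.61 CPM in the control pool and 16.6 CPM in the LKO pool against 16.4 to 29.3 CPM in the mice. Alas2, the synthase of red cell precursors, was called lower at 12, 24, 48 and 72 h (-1.07, -1.85, -1.41 and -0.78, log2). Uros at 12 h was at -0.60 (adjusted p = 0.272) and Alas2 at 48 h at -1.04 (0.0506) without the control pool, and Alas2 at 72 h was not called without either pool. Uros was not called from 24 h on, and neither gene was called at 96 h or in any knockout comparison.

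Heme breakdown begins with heme oxygenase. Hmox1, the inducible form, was at 17.3 to 25.3 CPM in controls and 13.7 to 23.9 CPM in LKO livers at 0 h. At 12 h it was at 735 CPM in the control pool and 213 CPM in the LKO pool, a shared rise of 4.39 (log2, SE 0.27, adjusted p = 3.21e-08). It was still called higher from 24 to 72 h (1.48, 1.32 and 2.38) and not at 96 h (-0.28). Across the 5 times it was lower in LKO than in control pools, by 1.21 (SE 0.22, adjusted p = 0.0484), with the LKO pool below the control pool at each time (-0.62 to -1.91). The call was lost under 11 of 18 alternatives, among them without either pool of 12, 24, 48 or 72 h (-1.35 to -1.02). Without the control pool of 48 h the Hmox1 change at that time was 0.58 (adjusted p = 0.40). This genotype difference minus that at 0 h was -0.93 (SE 0.31, adjusted p = 0.443). Hmox2, the constitutive oxygenase, changed by -0.32 to -0.10 with no call, but it overlaps Cdip1 and the column used held 56.8% of the reads of the stranded columns, so its level is uncertain.

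Of the 8 genes of heme breakdown and bilirubin conjugation or transport, Hmox1 was the one called higher, and the calls in the other direction were 2 at 12 h, 4 at 24 h and 3 at 48 h (31%, 25.6% and 16.4% of all genes were called in either direction). They were transporters that take bilirubin and other anions into hepatocytes or export its conjugates, and the conjugating enzyme. Slco1b2 fell at 12, 24 and 48 h (log2 changes of -2.33, -1.72 and -1.14), as did Slco1a1 (-2.88, -3.15 and -2.26). Abcc2, the exporter into bile, fell at 24 and 48 h, by 1.03 at the later time (log2). Ugt1a1, the enzyme that conjugates bilirubin, fell by 1.69 at 24 h (adjusted p = 0.0112), though it shares exons with other genes of the Ugt1a cluster and its count is uncertain. The list's median was -1.34 at 24 h, beside 0.00 for all genes. When the control pool was left out, Slco1b2 was at -1.38 at 24 h (adjusted p = 0.0811) and -0.48 at 48 h (0.487) and Slco1a1 at -1.32 at 48 h (0.136). The calls of Abcc2 and Ugt1a1 were lost without either pool of their time (adjusted p = 0.107 to 0.159).

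Of 12 genes for substrate, iron and porphyrin transport and partners of the enzymes, 2 were called lower at each of 12, 24, 48 and 72 h and 1 higher at 24 h, where 31%, 25.6%, 16.4% and 16.8% of all genes were called, so that the list's share was near or below that of all genes. Abcb10, a mitochondrial transporter needed for heme synthesis, fell from 12 to 72 h (-1.62, -0.91, -0.76 and -0.74), and Abcb6, a porphyrin transporter, from 24 to 72 h (-1.09, -1.10 and -0.74). Once the control pool was left out, the Abcb10 calls of 48 and 72 h (-0.46 and -0.54) and the Abcb6 calls of the same times (-0.76 and -0.66) were lost, and without the LKO pool that of Abcb10 at 24 h (adjusted p = 0.0841) and that of Abcb6 at 72 h (0.0581). Of 6 heme carriers and scavengers tested, Slc48a1, which moves heme out of lysosomes, was called higher at 12 h (1.22) and 24 h (1.10). Hp, which binds free hemoglobin, was higher at 48 h (1.26) and 72 h (1.00), and Hpx, which binds free heme, at 72 h (0.91). Lrp1, the receptor of the heme and hemopexin complex, was lower at 24 h (-1.05). The calls of Lrp1 and of Hp at 48 h were lost without either pool of their time, and those of Hp and Hpx at 72 h without the control pool (0.16 and 0.52). Hp at 72 h was also lost without the first or the second control mouse (adjusted p = 0.0643 and 0.0603).

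Of 10 regulators of heme genes, 4 were called lower at 24 h, 3 at 48 h and 5 at 72 h, and 0 higher at these times (25.6%, 16.4% and 16.8% of all genes were called in either direction). The list's median was -0.65, -0.63 and -0.70 at these times. At 12 h 2 were higher, Bach1 (1.29), a heme-binding repressor of Hmox1, and Nrf1 (0.82), while Nr1d1 was lower (-0.81), which is 3 of 10 where 31% of all genes were called. Nr1d1, a heme-binding clock repressor, was lower still at 24 h (-2.57) and 48 h (-2.73). Ppargc1a, a coactivator that drives Alas1 in fasting, fell by 1.15 at 24 h (adjusted p = 0.0404), and Hnf4a was lower from 24 to 72 h (-0.67, -0.88 and -0.83). With the control pool left out, Bach1 at 12 h was at 0.61 (adjusted p = 0.177) and Nrf1 at 0.67 (0.0521), and the calls of Nr1d1 at 12 h, Ppargc1a at 24 h and Hnf4a at each of its times were lost without either pool. The 24 h calls of Ppargc1a and Hnf4a were lost under 9 of 17 alternatives each. The summed level of the 7 fasting genes was 8230 to 11417 CPM in the 8 mice and 3684 to 7948 CPM in the 10 pools, so that every pool lay below every mouse, and its part in the Alas1 change was not tested.

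The levels of some members followed each other across the 18 libraries of the LKO cohort. Pearson's r of log2 CPM, a description over libraries that include the strong APAP changes, was 0.84 for Alad with Urod, 0.75 for Urod with Ppox and 0.64 for Alas1 with Cpox. It was -0.60 for Cpox with Blvra and -0.58 for Alas1 with Blvra. Among all 13855 genes kept, the 3 genes most like Alas1 were Ppp1r10 (r = 0.91), Cpt2 (0.89) and Abhd6 (0.86). For Alad they were Ang (0.93), Msrb1 (0.89) and Cutc (0.89), and for Urod Ift46 (0.95), Msrb1 (0.92) and Tm2d2 (0.92). Cpox was most like Sec24c (0.91), Mtmr4 (0.87) and Mon1b (0.85), Ppox like Six5 (0.95), Psen2 (0.92) and Ssbp3 (0.92), and Fech like Ube2r2 (0.93), Cyp4v3 (0.92) and Atg14 (0.91). Blvra followed Itgb3bp (0.94) and Dnajc19 (0.92), and Blvrb followed Coa7, Imp3 and Eef1d (0.84, 0.83 and 0.83).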

How the data were processed

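The counts deposited by the authors are raw reads per gene from poly(A) RNA of whole liver. Per the paper's methods and the submitters' processing notes, reads were trimmed with Trimmomatic, aligned to mm10 with STAR and counted per gene by STAR, with no normalization. The annotation used is not given in the sources used here. The column that disregards strand was used. Rows without a gene name (4 per file) did not enter totals or tests.

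Low counts were removed with filterByExpr and libraries scaled by TMM. The test was the quasi-likelihood F-test of edgeR 4.0.16 (R 4.3.3), and p-values were adjusted over all genes tested (Benjamini-Hochberg). SE was taken as the log2 fold change over the square root of F, and 95% intervals from the t distribution. A call needed an adjusted p under 0.05 and 1.5-fold. Levels are CPM with TMM within each cohort, so they are not compared between cohorts, and pool differences used a prior count of 2. DESeq2 1.42.0, other scalings, filters, count columns and leaving out each library were alternatives. The procedure was tested on simulated data.

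All 8 members were given by value or range in every comparison. Uros, Hmox1 and Hmox2 were named in the comparisons of knockout with control livers and of APAP with 0 h, with up to 6 further called pathway genes per comparison by smallest p. Further list and marker genes were named after their values were seen. Likeness named up to 3 genes of highest r per member. Some results that the rule would name are not reported here. The members and lists were chosen with earlier results of these data known. Flvcr1, Flvcr2 and Ly6g were not analysed here.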

Additional observations from a re-analysis of the deposited data

How the results depend on the processing

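Of the counts of called members under alternatives other than leaving out a library, 84 stayed within 1.5 times of the main count, 5 fell below that, 3 rose above it and 2 counts between pools moved, and none of the 11 calls of a member changed sign in any alternative. Over the 8 members and all comparisons, 21 of 80 log2 fold changes changed sign in at least 1 alternative, and none of these was called in any. The widest was Alas1 at 12 h (-1.05 to 0.90). In HKO livers at 0 h, 1 member (Alas1) was called with DESeq2 and 1 with no filter beyond 1 count. At 24 h, 4 members passed with no limit on the fold change. At 48 h, 1 was called under library size alone, and at 96 h 0 were called under library size alone, with no filter, with the stranded column 4 and with no genotype term. Between pools, under library size alone, 1 member was past 1.5-fold at 48 h and 2 at 96 h. Scaling by library size alone moved the median of all genes by 0.13 in untreated LKO livers, by 0.14, 0.20 and 0.11 for the changes at 24, 48 and 72 h, and by 0.14, -0.14 and 0.21 between the pools at 12, 48 and 96 h.

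Over 74 fits that each left out 1 library, the number of called members ranged from 0 to 1 in untreated HKO livers (1 without the third control), from 1 to 4 at 12 h (1 without the control pool), from 0 to 3 at 24 h (1 without the control pool and 0 without the LKO pool), from 1 to 4 at 48 h (1 without the control pool and 4 without the first LKO mouse), from 1 to 2 at 72 h (1 without the control pool) and from 0 to 1 at 96 h. A pool left alone at its time is assumed to vary like the other libraries. Counts of called genes over the whole table ranged in these fits, from 12 to 96 h in order, from 2151 to 4419, 1177 to 3630, 507 to 2387, 514 to 2408 and 7 to 83, and from 54 to 297 in HKO livers and 8 to 145 in LKO pools. DESeq2 called 324 genes in HKO livers (edgeR 119), 595 in LKO pools (74) and 338 at 96 h (64), and 0 were called in LKO pools without the time block. At least 10 counts in every library gave 1519 genes at 72 h (2327), and the stranded column gave 28 at 96 h.

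Whether mice of one number shared more than that number cannot be told from so few pairs. The correlations of their deviations ran from -0.34 to 0.19 in the LKO cohort and from -0.03 to 0.20 in the HKO cohort. Of 7 pairs, 1 correlated best within itself. A fit with the replicate block called 0 members and 0 genes in LKO livers at 0 h. In HKO livers it called 0 members and 263 genes, where 119 were called without the block. Alas1 was at -0.91 with the block (edgeR adjusted p = 0.0524), and its SE was 0.20, against 0.27 without it. At most 448 reads fell on Blvra in any library, which limits its precision.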

Other observations

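Several proteins that carry heme were called after APAP. Of 13 hepatic hemoproteins and their reductases, 7 were called lower and 1 higher at 24 h, with a median of -1.42 (log2) beside 0.00 for all genes, and at 12 h the counts were 3 lower and 2 higher (25.6% of all genes were called at 24 h and 31% at 12 h). Cyp2e1 and Cyp1a2 encode P450 enzymes that oxidize APAP. Cyp2e1 was at 7153 to 9719 CPM in controls and 4971 to 8415 CPM in LKO livers at 0 h. From 12 to 96 h, in order, it was at 4389, 1206, 448, 2520 and 6921 CPM in the control pools and at 3459, 2497, 2212, 4271 and 4157 CPM in the LKO pools. Both genotypes together, it fell by 2.11 at 24 h (adjusted p = 0.00407) and by 2.62 at 48 h (adjusted p = 0.00209). Cyp1a2 fell from 12 to 48 h (-2.41, -2.96 and -1.94), and catalase (Cat), which also holds heme, from 12 to 72 h (-1.10, -1.56, -0.96 and -0.72). Por, which passes electrons to the P450 enzymes, rose by 1.26 at 12 h, and cytochrome c (Cycs) by 1.11 at 24 h. Without the control pool, Cyp2e1 at 24 h was at -1.68 (adjusted p = 0.105), Cyp1a2 at 48 h at -0.97 (0.298) and Cat at 48 and 72 h at -0.58 and -0.44. Cat at 72 h was lost under 10 of 17 alternatives. Cyp1a2 at 12 h was lost without the LKO pool (adjusted p = 0.0589) and at 24 h without the control pool (0.0633). Cyp2b10 was higher in LKO than in control pools (2.01, SE 0.34, adjusted p = 0.0417), a call lost under 10 of 18 alternatives, among them with no time block (adjusted p = 0.764), while its log2 difference stayed between 1.62 and 2.28.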
